A study of Homo sapiens with 4 samples.

Results

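The adhesion G protein-coupled receptor genes are the family to which ADGRB1, also called BAI1, belongs. The 32 genes of the family were located in the RefSeq gene table of GRCh38.p14, 31 of them by their symbol and ADGRF2 by an older symbol, and every MACS peak overlapping a gene by at least 1 bp was assigned to it. The table lists ADGRF2 as a transcribed pseudogene. The comparison set was the 20033 protein-coding genes on the assembled nuclear chromosomes, out of 59675 genes of the table there. The study performed ChIP-seq with an HA tag antibody in K562, an established human cell line of chronic myeloid leukemia origin, to ask where in the genome PHF6, a chromatin-associated protein, binds. The cells overexpressed HA-PHF6 or HA, and the cross-linked chromatin came from cells overexpressing HA-PHF6 or from control cells, with no treatment. There were 4 libraries, a ChIP library and an input labelled HA and the same pair labelled WT. The titles leave it unclear which pair carried HA-PHF6, so the libraries are named by their labels, and no difference between them is given the direction of PHF6. With 1 library per label there were no replicates and no test between the libraries, and every interval covers counting error only.

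Adhesion receptors join a long extracellular part to a membrane-spanning G protein-coupled receptor domain. Most are cut by their own GAIN domain as they mature, and the pieces stay together at the cell surface until a ligand or a pull on the outer piece exposes a tethered agonist that activates the receptor. Many are known from the nervous system, where latrophilins and brain angiogenesis inhibitors sit at synapses, and others from leukocytes, vessels and epithelia. ADGRB1 is a receptor for phosphatidylserine on dying cells and signals through ELMO1, DOCK1 and RAC1.

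The library labelled HA had 16132466 ChIP tags and 12662 peaks, and the library labelled WT had 22257947 ChIP tags and 6874 peaks. A tag is a sequenced fragment end extended to the fragment length, and the pileup is the number of tags over the summit of a peak. The weakest peaks had 4 tags in the list labelled HA and 6 in that labelled WT, over genome-wide backgrounds of 1.05 and 1.68 tags. The q-value, in which the p-value is corrected for multiple testing, was 1 for 64.0% and 58.0% of all peaks.

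Of the 32 genes, 11 had a peak in the list labelled HA (34.4%, 95% Wilson interval 20.4% to 51.7%), 8 in the list labelled WT (25.0%, 13.3% to 42.1%), 4 in both (12.5%, 4.97% to 28.1%) and 15 in either list (46.9%, 30.9% to 63.6%). Among all protein-coding genes, 18.0% had a peak in the list labelled HA, 8.58% in the list labelled WT, 4.03% in both and 22.6% in either. Every share of the family was therefore above that of protein-coding genes, but its genes are long. Their median length was 56.4 kb against 24.1 kb for protein-coding genes, and the lengths ran from 23.4 kb (ADGRF4) to 878.0 kb (ADGRL3). Protein-coding genes in the same length classes as the members would give 10.2 genes with a peak in the list labelled HA, 5.21 in the list labelled WT and 3.06 in both. Read against these numbers, the counts of 11, 8 and 4 lie close to those of other genes in the library labelled HA and in both lists, and in the library labelled WT the interval of the share still includes the number that length gives.

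Per length, the family as a whole did not differ from other genes beyond counting error, which was wide. The members span 4956 kb in sum and held 20 peaks labelled HA, 0.404 per 100 kb (exact 95% Poisson interval 0.247 to 0.623), where protein-coding genes had 0.434 and the genome 0.408. They held 8 peaks labelled WT, 0.161 per 100 kb (0.0697 to 0.318), where protein-coding genes had 0.210 and the genome 0.222. The mean density of protein-coding genes gives 21.5 and 10.4 peaks for this length, so the observed number was 0.931 times (0.569 to 1.44) and 0.768 times (0.331 to 1.51) that number. Both intervals include the mean of protein-coding genes.

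**Figure D1:**
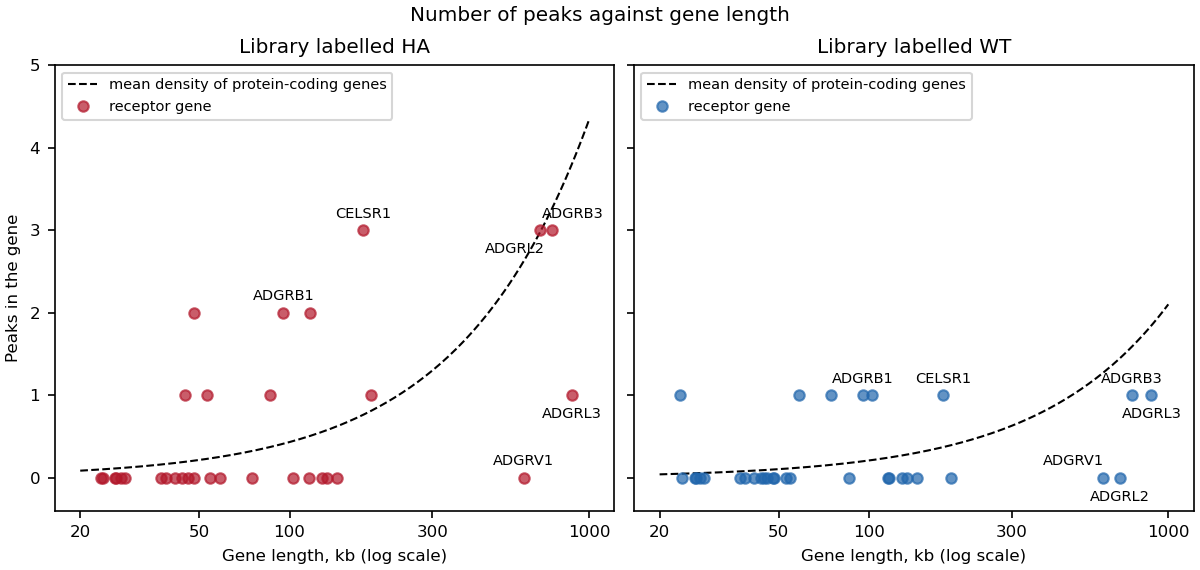
Number of peaks in each of the 32 receptor genes (vertical axis) against gene length in kb (horizontal axis, log scale), for the library labelled HA (left) and labelled WT (right). Each point is a gene and the dashed line is the mean density of protein-coding genes; CELSR1 and ADGRB1 lie above the line in both panels, while ADGRL3 and ADGRV1, at 878.0 and 605.6 kb, lie below it.

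By value, the peaks were sparser in the long members than in the shorter ones, as the plot of peaks against gene length shows. The intervals of the 2 groups overlapped in both lists. The members under 300 kb held 13 peaks labelled HA, 0.640 per 100 kb (0.341 to 1.09) against 0.433 in protein-coding genes of that size, and 6 peaks labelled WT, 0.296 per 100 kb (0.108 to 0.643) against 0.189. The 4 longest members, ADGRL3, ADGRB3 (754.2 kb), ADGRL2 (687.8 kb) and ADGRV1 (605.6 kb), held 7 and 2 peaks, or 0.239 per 100 kb (0.0962 to 0.493) against 0.434, and 0.0684 (0.00828 to 0.247) against 0.252. The upper end of the last interval lies just under the value of the protein-coding genes over 300 kb in the list labelled WT. The other intervals include the value of the genes beside them. Of protein-coding genes over 300 kb, 79.7% had a peak labelled HA and 49.7% a peak labelled WT, and of the 4 long members 3 and 2 did. In the class of 50 to 100 kb, which holds ADGRB1, 3 of 6 members had a peak in each list, against 24.9% and 10.4% of protein-coding genes. By density this class had 0.949 HA peaks per 100 kb (0.258 to 2.43) against 0.417, and 0.711 WT peaks (0.147 to 2.08) against 0.171. Both intervals include the value of protein-coding genes of that size. The other classes lay nearer to their shares. From 20 to 50 kb, 2 and 1 of 14 members had a peak, against 14.4% and 6.26%. From 100 to 300 kb, 3 and 2 of 8 did, against 43.5% and 21.6%.

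ADGRB1, the gene the study followed, belongs with ADGRB2 and ADGRB3 to the brain angiogenesis inhibitors. ADGRB1 lies on chromosome 8 from 142449649 to 142545007 (95.4 kb). In the library labelled HA it held a peak from 142466111 to 142466444 and another from 142486201 to 142486569, both with a pileup of 4 tags and a fold enrichment of 2.44 (pileup over background, with 1 added to each). Their −log10 p was 2.35 and their −log10 q was 0, meaning a q-value of 1. In the library labelled WT it held 1 peak from 142480258 to 142480701, with 7 tags and a fold enrichment of 2.98, where −log10 p was 3.44 and −log10 q was 0. The summits lay at 17.6% and 38.4% of the gene's length from its lower coordinate in the library labelled HA and at 32.1% in the other library, so that the WT peak fell between the HA peaks, 5.5 kb from the nearer one. The background at all 3 summits was the genome-wide one. The HA peaks had the lowest pileup of their list. Their pileup and fold enrichment were shared by 2433 peaks of it, 5.68% of the list had a lower fold enrichment and 2.08% a lower −log10 p, and 490 peaks labelled WT had the same values as the ADGRB1 peak there. At the fold enrichment of the HA peaks, the background of the library labelled WT gives 5.55 tags, under the 6 tags that its weakest peaks had. At the fold enrichment of the WT peak, the background of the library labelled HA gives 5.11 tags, above the 4 tags of its weakest peaks. Both are mean numbers with no allowance for counting error.

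ADGRB3, the longest gene of the group, was the other member of it with peaks in both lists. On chromosome 6 it held peaks labelled HA from 69246686 to 69246927 (6 tags, fold enrichment 2.92), from 69372611 to 69372878 (5 tags, 2.51) and from 69387735 to 69387988 (7 tags, 2.59). The peak labelled WT, from 69357944 to 69358177, had 9 tags and a fold enrichment of 3.52 at a −log10 q of 0.522, and its −log10 p of 4.62 was the highest among the members in that list. All 4 summits lay between 81.1% and 99.8% of the gene's length from the annotated start site, within 141.1 kb of a gene of 754.2 kb. The nearest peaks of the 2 lists were 14.4 kb apart. The background at these summits was above the genome-wide one, at 1.39, 1.39 and 2.09 tags under the HA peaks and at 1.84 tags under the WT peak. ADGRB2 (37.2 kb), the shortest of the group, held no peak in either list, where the mean density gives 0.161 and 0.0783. The group as a whole had 0.564 HA peaks per 100 kb (0.183 to 1.32) and 0.226 WT peaks per 100 kb (0.0273 to 0.815).

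Within the family, ADGRB1 was near the top by density and near the bottom by peak strength in the list labelled HA. Its 2.10 peaks per 100 kb (0.254 to 7.58) were the third of the 11 members with a peak, after ADGRA2 (4.17, 0.504 to 15.0) and ADGRF1 (2.24, 0.0567 to 12.5) and before ADGRE1 (1.89), ADGRL4 (1.71) and CELSR1 (1.70). By highest −log10 p, fold enrichment and pileup it shared places 8 to 11. In the list labelled WT its 1.05 peaks per 100 kb (0.0266 to 5.84) were the fourth of 8, after ADGRF4 (4.27, 0.108 to 23.8), ADGRL1 (1.71) and ADGRE3 (1.34). There ADGRB1 shared places 3 to 4 by −log10 p and fold enrichment and places 4 to 7 by pileup. The Poisson intervals of all 32 members, those without a peak included, overlapped that of ADGRB1 in both lists, so these places are an order of values that counting error does not separate. Among all protein-coding genes with a peak, 66.0% had a lower density than ADGRB1 by HA peaks and 48.9% by WT peaks. Of all protein-coding genes, whatever their length, 4.86% had at least as many peaks as ADGRB1 in the list labelled HA. That share is not matched for length, and ADGRB1, at 95.4 kb, is longer than the median protein-coding gene of 24.1 kb. For the length of ADGRB1, the mean density of protein-coding genes gives 0.413 HA peaks, where 2 were found. On its chromosome, 22.1% and 10.2% of protein-coding genes had a peak.

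**Figure D2:**
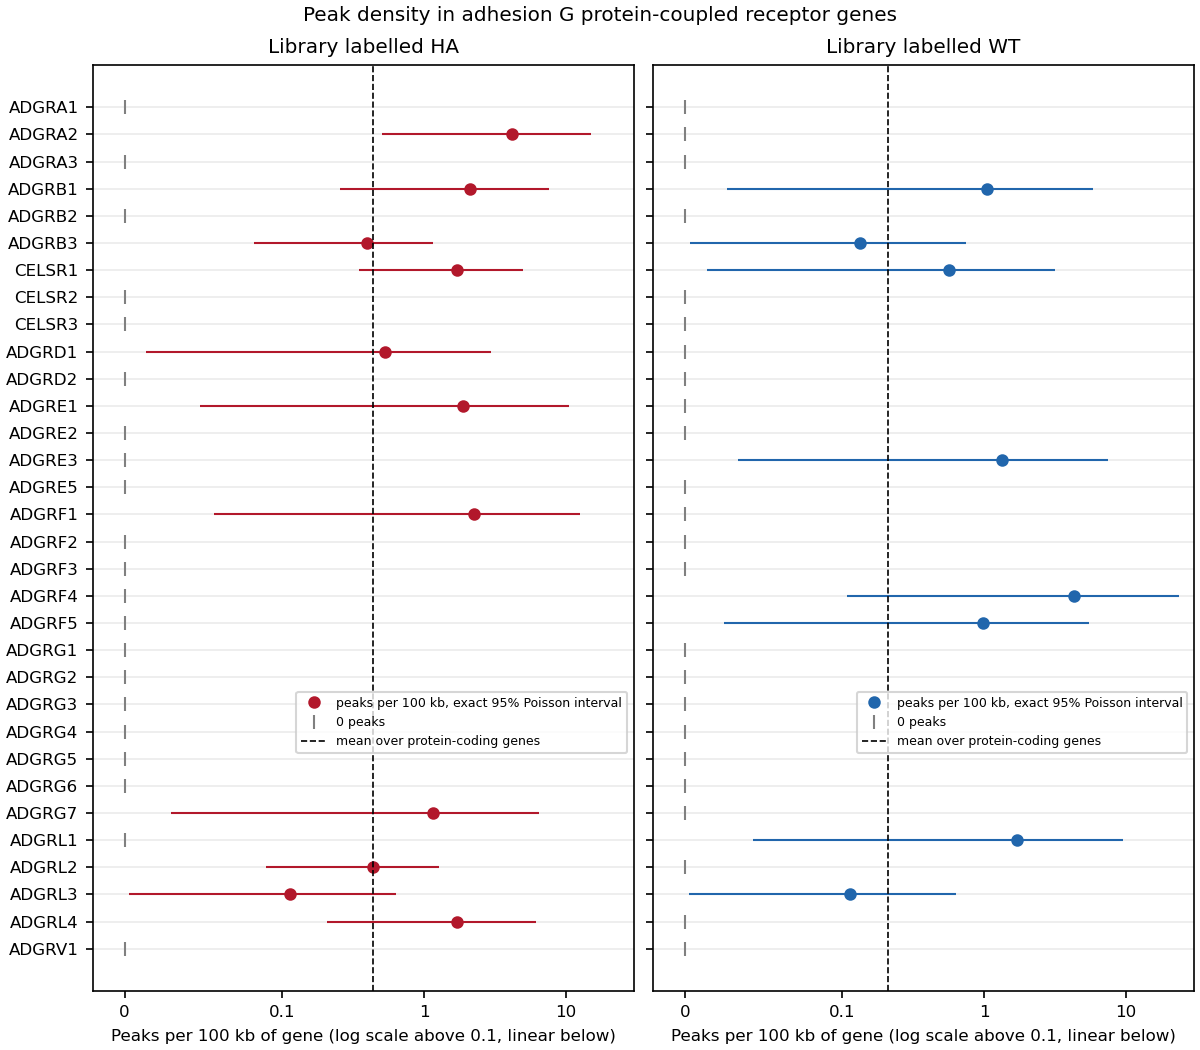
Peaks per 100 kb of gene (horizontal axis, log scale above 0.1 and linear below) for each of the 32 receptor genes, in the library labelled HA (left) and labelled WT (right). Points are densities with exact 95% Poisson intervals, grey ticks are genes with 0 peaks and the dashed line is the mean of protein-coding genes (0.434 and 0.210). Every interval overlaps that of ADGRB1. The interval of ADGRA2 in the left panel starts above the line, at 0.504, and rests on 2 peaks of 4 tags that lie 783 bp apart. Among several 95% intervals, 1 can miss the line through counting error.

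The latrophilins (ADGRL1 to ADGRL4), whose first 3 members bind teneurins and FLRT proteins across synapses, held 6 peaks labelled HA, the most of any subfamily, over the largest summed length, 1741 kb. They held 2 peaks labelled WT, as many as the ADGRB and the ADGRF genes. Their density was 0.345 per 100 kb (0.126 to 0.750) and 0.115 (0.0139 to 0.415). ADGRL2 had 3 peaks labelled HA on chromosome 1, at 5, 4 and 6 tags from the lower coordinate upwards, with fold enrichments of 2.93, 2.44 and 3.42, and none labelled WT. ADGRL4, known from endothelial cells, had 2 peaks labelled HA, at 5 and 4 tags, and none labelled WT. ADGRL1 had 1 peak labelled WT, on chromosome 19 from 14182839 to 14183126, with 7 tags and a fold enrichment of 2.98, the same values as the WT peak of ADGRB1. ADGRL3, the longest gene of the family, had 1 peak in each list, where its length gives 3.81 and 1.85. Its HA peak had 5 tags and a fold enrichment of 2.93, and its WT peak, at 6 tags and 2.32, had the lowest −log10 p of the members in that list (2.33). The 2 peaks lay 596.7 kb apart.

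CELSR1, CELSR2 and CELSR3 are the cadherin-type receptors of planar cell polarity, the alignment of cells within a sheet. CELSR1 (176.4 kb, chromosome 22) held 3 peaks labelled HA, where its length gives 0.765. That from 46456423 to 46456811 had 7 tags. Its fold enrichment of 3.54, −log10 p of 4.28 and −log10 q of 0.304 were the highest of any member in that list, and the −log10 p was above that of 85.9% of the list. The others, from 46435283 to 46435483 and from 46518848 to 46519084, had 5 tags and a fold enrichment of 2.93 each. The 1 peak labelled WT, from 46430903 to 46431136, had 7 tags and a fold enrichment of 2.85, and ended 4.147 kb before the nearest HA peak, the shortest gap between the lists in any member. CELSR2 (26.2 kb) and CELSR3 (26.4 kb) had no peak in either list.

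ADGRA2, also called GPR124, a co-receptor for Wnt7 signals in brain vessels, held the highest density labelled HA. It rests on a pair of peaks on chromosome 8, from 37830995 to 37831466 and from 37832250 to 37832450, that lie 783 bp apart in a gene of 48.0 kb. Each had 4 tags, the fewest of any peak in the list, with a fold enrichment of 2.44, and there was no peak labelled WT. ADGRA1 and ADGRA3 had none in either list. In the ADGRD group, ADGRD1 (GPR133) had 1 peak labelled HA at 6 tags, 3.37-fold over background, with a −log10 p of 3.88 (−log10 q 0.106), and ADGRD2 had none.

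The ADGRF group holds ADGRF5 (GPR116), which limits surfactant in the lung. ADGRF1 had 1 peak labelled HA, on chromosome 6 from 47018934 to 47019168, with 7 tags, 3.34-fold over background, and a −log10 p of 3.98. ADGRF4 had 1 peak labelled WT, from 47706460 to 47706807, with 9 tags and a fold enrichment of 2.79 over a background of 2.59 tags, the highest background at any summit in a member. ADGRF5 had 1 peak labelled WT with 7 tags and a fold enrichment of 2.73. These genes form with ADGRF2 a cluster of 4 members over 869.5 kb, which held 1 peak labelled HA and 2 labelled WT, each in another gene.

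The ADGRE receptors are found on leukocytes, and ADGRE5 (CD97) binds CD55. ADGRE3 had 1 peak labelled WT, on chromosome 19 from 14673355 to 14673630, with 8 tags, 3.05-fold over background, and a −log10 q of 0.166. ADGRE1 had 1 peak labelled HA at 4 tags, at a place where the table also has LOC105372256. It was the only peak in a member that overlapped another annotated gene. ADGRE2 and ADGRE5 had no peak, so that the cluster of ADGRL1, ADGRE5, ADGRE3 and ADGRE2 over 630.8 kb held 0 peaks labelled HA and 2 labelled WT.

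The ADGRG group has the most members, 7 genes over 597.4 kb, among them ADGRG1 (GPR56), needed for the layering of the cerebral cortex, and ADGRG6, needed for myelination of peripheral nerves. It held 1 peak, in ADGRG7, at 4 tags in the library labelled HA, which is 0.167 per 100 kb (0.00424 to 0.933). No peak labelled WT fell in the group, which allows a density of up to 0.502 per 100 kb (3 counts). The cluster of ADGRG5, ADGRG1 and ADGRG3 on chromosome 16 held 0 peaks in both lists over 160.3 kb. ADGRE1 and ADGRG7 were named after their values were seen.

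ADGRV1, the very large receptor of stereocilia and photoreceptors that is mutated in Usher syndrome, was the longest member without a peak. The mean density gives 2.63 peaks labelled HA and 1.27 labelled WT for its 605.6 kb. A count of 0 in this length allows up to 0.495 per 100 kb in each list (3 counts), which includes the mean of protein-coding genes. The 17 members without a peak in either list were ADGRA1, ADGRA3, ADGRB2, ADGRD2, ADGRE2, ADGRE5, ADGRF2, ADGRF3, ADGRG1, ADGRG2, ADGRG3, ADGRG4, ADGRG5, ADGRG6, ADGRV1, CELSR2 and CELSR3. Of these, 12 were shorter than 60 kb.

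The peaks in members had few tags, and their medians lay near those of the whole lists. In the list labelled HA the median pileup was 5 tags (range 4 to 7), as in the whole list, whose highest was 401. Their median fold enrichment was 2.76 (95% interval of the median 2.44 to 2.93, range 2.44 to 3.54) against 2.93 in the whole list, and their median −log10 p was 2.98 against 3.13. Of the 20 peaks, 8 (40.0%) had the fewest tags a peak could have, against 20.6% of the whole list. Above the list's median −log10 p were 5 of the 20. Further peaks in ADGRL2, ADGRL3, ADGRL4 and CELSR1 lay exactly at that median. It is a tied value: 39.6% of the list lay below it, and 2340 peaks of the list shared the values of these peaks. The count of 5 is therefore not to be read against an equal split of the list. In the list labelled WT the median pileup was 7 tags (range 6 to 9), against 8 in the whole list, whose highest was 465. The median fold enrichment was 2.91 (2.32 to 3.52) against 2.84, and 5 of 8 peaks were above the list's median −log10 p. The q-value was 1 for 16 of 20 peaks labelled HA and 6 of 8 labelled WT, and the highest −log10 q was 0.304 and 0.522. No peak in a member reached a −log10 q of 1.3, a q-value of 0.05, in either list, and 0 of 32 genes allows a share of up to 9.38%. Among protein-coding genes 0.724% and 0.240% had such a peak, so that a family of this size is not large enough to show a share lower than theirs.

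**Figure D3:**
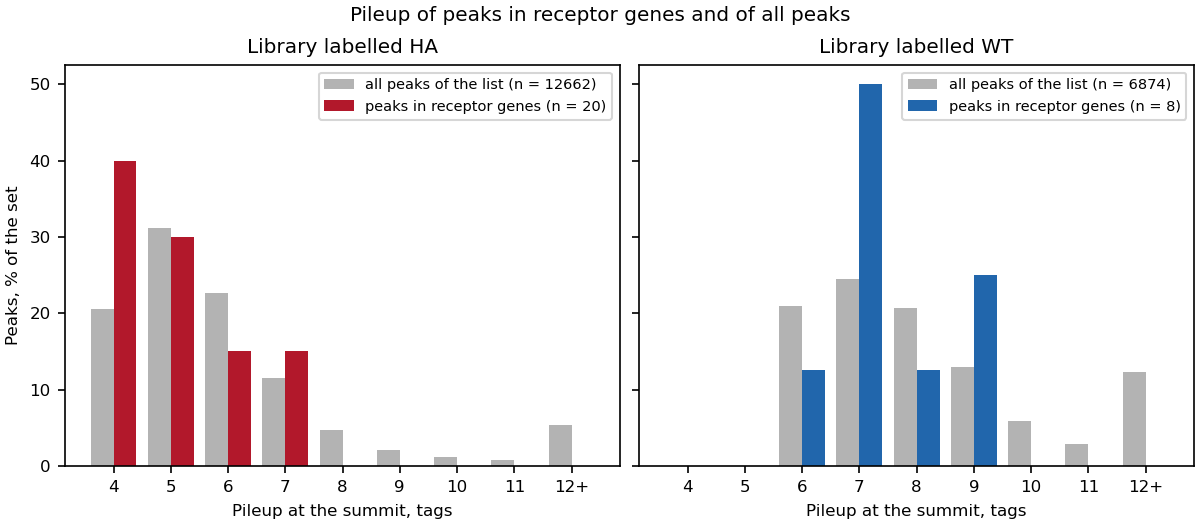
Share of peaks (vertical axis, % of the set) by pileup at the summit in tags (horizontal axis), for the library labelled HA (left) and labelled WT (right), with peaks in receptor genes in colour (n = 20 and 8) and all peaks of the list in grey. Peaks in receptor genes lie at 4 to 7 tags and at 6 to 9 tags, and none falls in the classes above.

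No peak of a member in one list overlapped a peak of the other list, 0 of 20 labelled HA and 0 of 8 labelled WT. Overlap was rare in the lists at large, at 1.67% of all peaks labelled HA and 3.08% of all peaks labelled WT, so that counts of 0 among 20 and 8 peaks do not set the family apart. In the 4 members with peaks in both, ADGRB1, ADGRB3, ADGRL3 and CELSR1, the nearest peaks were 4.147 to 596.7 kb apart. The limits of detection of the lists differ, which bears on this. At the background of the library labelled WT, the fold enrichment of 10 of the 20 HA peaks would give fewer than the 6 tags that its peaks have at least, and the other 10 would reach them. Of the 8 WT peaks, 7 would on average reach the 4 tags of the library labelled HA, at 4.59 to 6.19 tags, and none had a peak there. These are mean numbers at a genome-wide background, with no allowance for counting error or local background. They therefore do not show whether the lists differ at these places.

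**Figure D4:**
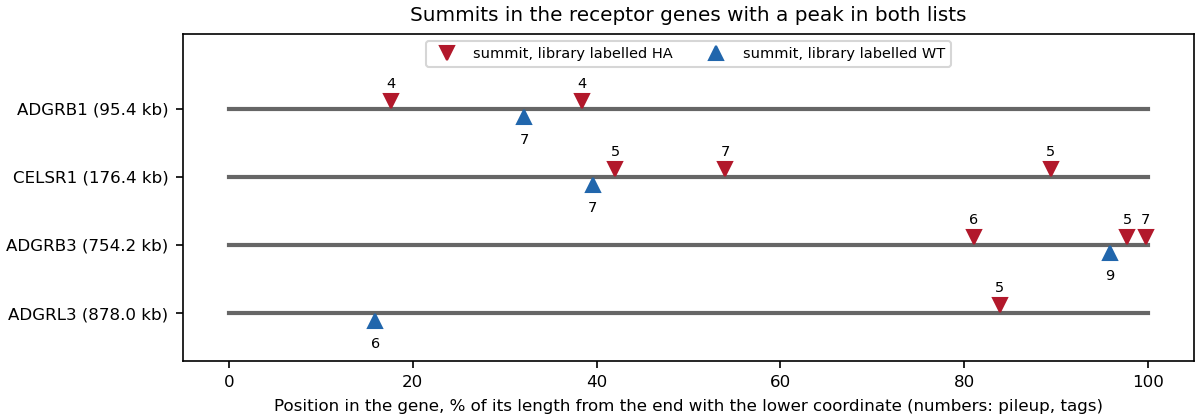
Summits of the peaks in the 4 receptor genes with a peak in both lists, as % of the gene's length from the end with the lower coordinate (horizontal axis), with genes on the vertical axis and the pileup in tags beside each summit. Red triangles are summits of the library labelled HA and blue triangles those labelled WT; the summits of ADGRB3 lie between 81.1% and 99.8%, and no red and blue summit share a place.

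The peaks of the family were placed against start sites. These were known from RefSeq (GRCh38) for 21 members, ADGRB1, ADGRA2 and CELSR1 not among them, and 17 of the 28 peaks fell in these. The distance from summit to nearest start site was 1.369 to 752.6 kb with a median of 45.0 kb, and 0 of the 17 peaks touched the window from 250 bases before to 50 bases after a start site. By library the median was 39.8 kb for 12 HA peaks and 45.6 kb for 5 WT peaks, against 43.0 and 55.5 kb for the peaks in all protein-coding genes with a known start site, of which 5.41% and 0.974% touched such a window and 16.6% and 10.3% lay within 5 kb. The 1 peak of a member within 5 kb was that of ADGRE3 in the library labelled WT, which ended 1165 bp from the window. No DNA sequence of the peaks was analysed here. The background was the genome-wide one at 14 of 20 summits labelled HA and 2 of 8 labelled WT, against 52.0% and 22.7% of all peaks.

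Partners of these receptors were described from a list of 38 genes in 3 roles. A peak labelled HA was found in 15 of them (39.5%, 25.6% to 55.3%) and a peak labelled WT in 8 (21.1%, 11.1% to 36.3%), against 18.0% and 8.58% of all protein-coding genes. Genes of the same length classes would give 13.2 and 7.35 genes with a peak. The partners held 33 and 20 peaks, where the mean density gives 40.4 and 19.6. The 19 ligands and surface partners held 24 and 11 peaks, where the mean density gives 23.7 and 11.5. Most of these were in the teneurins, the latrophilin ligands, which are among the longest genes of the genome. TENM3 held 11 peaks labelled HA and 1 labelled WT, where its length gives 5.88 and 2.85. TENM2 held 7 and 3, where its length gives 5.57 and 2.70. TENM1 held 2 and 2, where its length gives 3.59 and 1.74. TENM4 had 1 peak labelled HA and 5 labelled WT, where its length gives 3.42 and 1.66. Of the 5 planar polarity partners of the CELSR receptors, FZD3 had 1 peak labelled HA and VANGL1 1 peak labelled WT.

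The 14 inner partners and effectors held 8 peaks labelled HA, where the mean density gives 15.8, and 8 labelled WT, where it gives 7.64. By gene, 7 of them had a peak labelled HA and 3 a peak labelled WT, where their length classes give 6.36 and 3.59. ELMO1, the adaptor of ADGRB1, had 1 and 2 peaks, where its length gives 2.59 and 1.25. RHOA, a small GTPase downstream of G12 and G13 signals, had 1 in each list, where its length gives 0.229 and 0.111. Its WT peak had 12 tags, 3.90-fold over background, and a −log10 q of 1.40. TIAM1 (440.7 kb), an exchange factor that binds ADGRB1, had 0 peaks labelled HA and 5 labelled WT, where its length gives 1.91 and 0.926. The strongest had 11 tags, 4.48-fold over background, and a −log10 q of 1.99. TIAM1 was chosen after its values were seen, and no difference between the lists was tested. MDM2, a ubiquitin ligase that the study examined beside ADGRB1, had no peak in either list, where the mean density gives 0.184 and 0.0894.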

How the data were processed

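ChIP-seq was performed by the authors in K562 cells with 1 ChIP library and 1 input per label. BWA 0.7.12 and MACS2 2.1.0 are named in the submitters' processing notes, and the file headers give MACS 2.1.0.20150420, calling at p up to 0.005 without a fragment model, extensions of 201 bp (HA) and 234 bp (WT) and a genome size of 3099750718. Per the file headers, the authors used uniquely mapped, deduplicated reads, called peaks for each ChIP library against its own input and split them at their summits, without pooling. The inputs enter only through these calls. The signal deposited for each peak is the pileup at its summit, in tags. The deposited fold enrichment is a ratio of pileup to background, each plus 1. For p-values and q-values the deposited columns hold −log10. The headers state that q-values were not calculated, yet values are present and were used as given. The build is not given in the sources used here. Chromosome and contig names are those of GRCh38, and genes were placed with RefSeq GRCh38.p14, whose table has no exons, so exonic and intronic positions were not analysed here.

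Peaks were assigned to genes by an overlap of at least 1 bp from the first to the last annotated base. The background was computed as (pileup + 1) / fold enrichment − 1, and counted as genome-wide within 0.001 tags. Shares carry Wilson, counts and densities exact Poisson, and medians order-statistic 95% intervals. The limit of a count of 0 is 3 counts. The steps were tested on simulated data. Genes given with values were ADGRB1 to ADGRB3, members with a peak in both lists, per list the 5 with the most peaks (ties kept) and the 5 with the most peaks per 100 kb among those with 2 or more, holders of the 3 peaks highest in −log10 p, fold enrichment or pileup, and partners with peaks in both lists. Genes left out of the partner list, which are not reported here, enter none of its counts. The members and gene lists were chosen with earlier results of these data known. Stricter thresholds, a list of equal length, other rankings, overlap rules, merging and flanks were tried. The tools were Python 3.11.15, scipy 1.17.1 for the intervals, numpy 2.4.6, pandas 2.3.3 for the tables and, for plots, matplotlib 3.10.9.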

Additional observations from a re-analysis of the deposited data

How the results depend on the processing

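With a −log10 q of at least 5 or of at least 1.3, with a fold enrichment from 5 upwards, or among the 1000 peaks highest in −log10 p, the members with a peak, their peaks, their peaks per 100 kb, the peaks of ADGRB1 and the members with a peak in both lists were 0, in both lists. No median fold enrichment and no place of ADGRB1 could be given there. With a −log10 p of at least 3, the list labelled HA kept 7 members with 10 peaks (0.202 per 100 kb), and 2 members had a peak in both lists. With at least 6 tags it kept 5 members with 6 peaks (0.121 per 100 kb, median fold enrichment 3.35), and again 2 members had a peak in both lists. Cut to the length of the list labelled WT, it kept 7 members with 10 peaks (0.202 per 100 kb). In these 3 settings ADGRB1 had 0 peaks labelled HA and kept its 1 peak labelled WT. Of the 3, only the −log10 p limit could remove peaks labelled WT, and it left 7 members with 7 peaks. The place of ADGRB1 was 8 by −log10 p, fold enrichment or pileup in the list labelled HA. It was 1, shared by all 8 members with a peak, by number of peaks in the list labelled WT. Of 138 values under alternatives, 83 stayed within the limits used here and 55 did not. These limits were 1.5 times the main value for counts and places, and the main value's own interval for densities, medians and ratios.

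At 4 to 9 tags per peak, 1 tag can decide whether a member has a peak, and with 1 library per label no spread between replicates is known. The depth and extension differ between the libraries, so their numbers of peaks have different limits of detection. No paired analysis was possible because a single ChIP library stands behind each label.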
